A study of Rattus norvegicus with 25 samples.

Results

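The rat miR-34 and miR-449 family was followed in the small RNA of mature sperm, in 25 libraries from F0 Sprague-Dawley males. Its members were all rows of the deposited miRNA count matrix whose names begin with rno-miR-34a-, rno-miR-34b-, rno-miR-34c- or rno-miR-449, which gave 8 of 562 rows. Of these, 7 passed edgeR's filter on low counts and were among the 317 miRNAs tested: rno-miR-34c-5p, rno-miR-34c-3p, rno-miR-34b-5p, rno-miR-34b-3p, rno-miR-34a-5p, rno-miR-449a-5p and rno-miR-449a-3p. The remaining row, rno-miR-449c-5p, held 2 counts in a single library.

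The males had pressed a lever for intravenous morphine or for saline. Sperm was purified by a double swim-up from the cauda epididymis, the part of the duct where mature sperm are stored, either when self-administration ended or 90 days later. The 4 groups were F0_SAL (saline, nonabstinent, n = 7), F0_MOR (morphine, nonabstinent, n = 7), F0_ABS-SAL (saline, then 90 days without sessions, n = 5) and F0_ABS-MOR (morphine, then 90 days of abstinence, n = 6). The labels number the libraries as biological replicates and do not say whether sperm of several males was pooled. Abstinent males were sampled later after the sessions, and thus later in life for males that began at like ages, and no batch is given in the sources used here, so time since the sessions, age and batch cannot be told apart in a comparison of collection times. The paper names alternative culture media for releasing the sperm and does not say which samples had which. The medium therefore cannot be told apart from the group either. Library columns carry a letter with REG or TO and SAL or MOR. The sources do not expand REG and TO, which were taken as nonabstinent and abstinent from the number of columns of each kind, and a single library is called here by its letter.

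MicroRNAs are cut from a hairpin precursor whose 5p and 3p arms can each give a mature strand of about 22 nt, and the strand guides Argonaute proteins to messages that pair with its seed, the bases 2 to 8. Both miR-34 loci are known p53 targets. miR-34a is widely expressed, while miR-34b and miR-34c, made from a shared precursor transcript, and the miR-449 cluster are known for high levels in meiotic and later male germ cells and in multiciliated epithelium, including that of the efferent ducts. miR-34c is carried by mature sperm, and male mice without both the miR-34b/c and miR-449 loci are infertile.

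The mature sequences are shown because they divide the family by seed, and because they show how little separates the most abundant member from a minor one. They are the RefSeq sequences of GRCr8, written 5′ to 3′ with the seed in capitals, and all 8 rows found a match. The first 5 share one seed, the next 2 share another, and the last has its own.
rno-miR-34c-5p: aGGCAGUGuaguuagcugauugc
rno-miR-34b-5p: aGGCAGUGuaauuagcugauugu
rno-miR-34a-5p: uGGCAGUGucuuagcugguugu
rno-miR-449a-5p: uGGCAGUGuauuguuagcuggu
rno-miR-449c-5p: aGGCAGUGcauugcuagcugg
rno-miR-34b-3p: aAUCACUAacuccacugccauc
rno-miR-34c-3p: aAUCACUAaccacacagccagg
rno-miR-449a-3p: cAGCUAACaugcaacugcucuc
rno-miR-34c-5p and rno-miR-34b-5p are identical at 21 of 23 positions. They differ by G11A and C23U, where positions count from 1 at the 5′ end, the rno-miR-34c-5p base comes first and the rno-miR-34b-5p base last. A read of the first 22 nt therefore differs at position 11 alone, and the authors' alignment allowed 1 mismatch, so the assignment of reads between these rows is uncertain. By contrast, rno-miR-34c-5p matches rno-miR-34a-5p at 11 of 22 positions and rno-miR-449a-5p at 10 of 22, counted from the 5′ end without gaps.

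The hairpins lie at 3 loci. In the GRCr8 annotation of RefSeq, which is not the Rnor_6.0 build the authors aligned to, Mir34b (chr8:60306609-60306692, minus strand) and Mir34c (chr8:60306091-60306167, minus strand) are separated by 441 bases, and Mir34c lies within the span of the protein-coding gene Hoatz. Mir449c (chr2:46402375-46402473) and Mir449a (chr2:46403910-46404000), both on the plus strand, are separated by 1436 bases and lie within the span of the lncRNA LOC134485839. Mir34a (chr5:165815952-165816053, plus strand) lies within the span of the lncRNA LOC103692514. Whether these hairpins are exonic or intronic was not examined.

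Libraries held 1032386 to 3203211 miRNA counts, and the abstinent libraries were the deeper ones (medians of 2334377 in F0_ABS-SAL and 2134169 in F0_ABS-MOR, beside 1701012 in F0_SAL and 1428308 in F0_MOR). No count of 1 occurs in the matrix, so a 0 need not mean that no read was seen. As a check of the sperm label, the X-linked miRNA cluster of testis germ cells summed to between 22740 and 49120 CPM (counts scaled to a common library size) per library, after the trimmed-mean (TMM) scaling used for every CPM given here. Markers of other cells were present too. The epithelial list (miR-200, miR-141, miR-429 and miR-205) summed to between 6544 and 19440 CPM, the leukocyte list to between 1156 and 3068 CPM, the erythroid list to between 307.5 and 2744 CPM and the muscle list to between 13150 and 81880 CPM. The highest muscle and epithelial sums both came from library R of F0_ABS-SAL. Libraries F to O, 10 that hold 3, 3, 2 and 2 of F0_SAL, F0_MOR, F0_ABS-SAL and F0_ABS-MOR, stood apart from the other 15 in 3 miRNAs outside the family, such as rno-miR-30e-3p at 1545 to 3193 CPM against 597.9 to 1352 CPM. No label names a batch for them, and with this split in the fit, a setting chosen after seeing the data, the number of family members called was the same in every comparison. In such bulk samples, fewer cells of a type and less RNA per cell cannot be told apart.

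rno-miR-34c-5p was the most abundant miRNA in each of the 25 libraries. It held on average 38.0% ± 7.66 (SD, n = 25) of a library's miRNA counts, from 19.6% to 53.6%, ahead of rno-miR-7a-5p with a mean of 14.7% and rno-miR-148a-3p with 3.70%. Over all libraries it supplied 92.4% of the family's counts, so the family's share of a library is largely that of this 1 strand. Grouped by seed, the 5 rows with the rno-miR-34c-5p seed held 40.1% of all counts, the largest share among 433 seeds. The seed of miR-7 followed with 14.6%, and the seed of let-7, spread over 9 rows, held 6.50%. The seed shared by rno-miR-34b-3p and rno-miR-34c-3p ranked 8th with 2.11%. Seeds could be given for the 520 of 562 rows that matched a RefSeq sequence.

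The whole family took 46.7% ± 7.05 (SD, n = 7) of miRNA counts in F0_SAL, and the F0_MOR share was 42.7% ± 4.31 (SD, n = 7). After abstinence it took 36.6% ± 6.84 (SD, n = 5) in F0_ABS-SAL, and 37.1% ± 10 (SD, n = 6) in F0_ABS-MOR. These shares overlapped between all groups, with 38.0% to 57.7% in F0_SAL against 27.9% to 45.0% in F0_ABS-SAL, and 35.0% to 47.2% in F0_MOR against 22.2% to 46.7% in F0_ABS-MOR. The members other than rno-miR-34c-5p together held 3.34% ± 0.472 (SD, n = 7) of counts in F0_SAL, against 3.64% ± 0.313 (SD, n = 7) for F0_MOR. After abstinence they held 2.83% ± 0.800 (SD, n = 5) in F0_ABS-SAL and 2.88% ± 0.247 (SD, n = 6) in F0_ABS-MOR. A share depends on every other miRNA in the library, and no test was run on these sums.

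**Figure D1:**
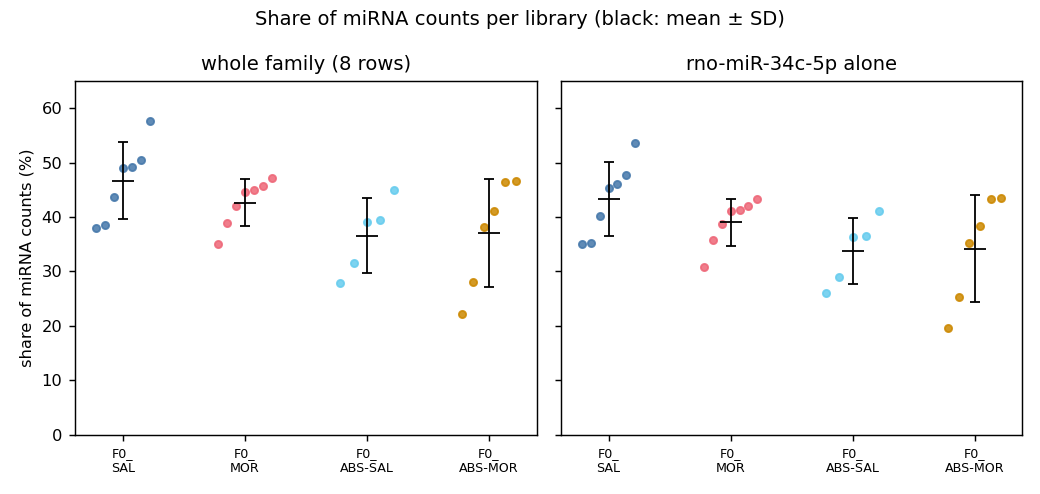
Share of miRNA counts (%, y axis) held by the whole family and by rno-miR-34c-5p alone, for each library (points) by group, with black bars for the mean ± SD. The 2 panels are nearly the same picture, and the family's share runs from 22.2% in the lowest library to 57.7% in the highest.

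The order of the other members was steep. rno-miR-34b-3p came next in the family at 10030 to 29190 CPM and ranked 4 to 14 among the miRNAs of a library. rno-miR-449a-5p followed at 3822 to 17070 CPM, then rno-miR-34c-3p at 896.6 to 3454 CPM and rno-miR-34b-5p at 686.0 to 2666 CPM, ranges that overlap widely. The rarest tested members, rno-miR-449a-3p at 11.4 to 67.8 CPM and rno-miR-34a-5p at 6.34 to 50.2 CPM, lay far below and overlapped each other. They rested on 28 to 133 and on 9 to 146 counts per library, so counting error weighs on them more than on the rest. rno-miR-449c-5p had 0 counts in 24 of 25 libraries, and a count of 0 still allows a share of up to 0.000291% in the smallest library. That limit takes a 0 as no read seen, which a 0 in this matrix need not mean, so the true limit can be higher. It covers counting error alone, since the reads carry no molecular identifiers.

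Within groups the members differed in how much they varied. The SD of log2 CPM within groups was 0.23 for rno-miR-34b-3p, 0.39 for rno-miR-34c-5p, 0.42 for rno-miR-34c-3p, 0.43 for rno-miR-449a-5p and 0.45 for rno-miR-34b-5p. It was 0.54 for rno-miR-449a-3p and 0.75 for rno-miR-34a-5p, the 2 members with the lowest counts. The median over all 317 miRNAs was 0.49.

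**Figure D2:**
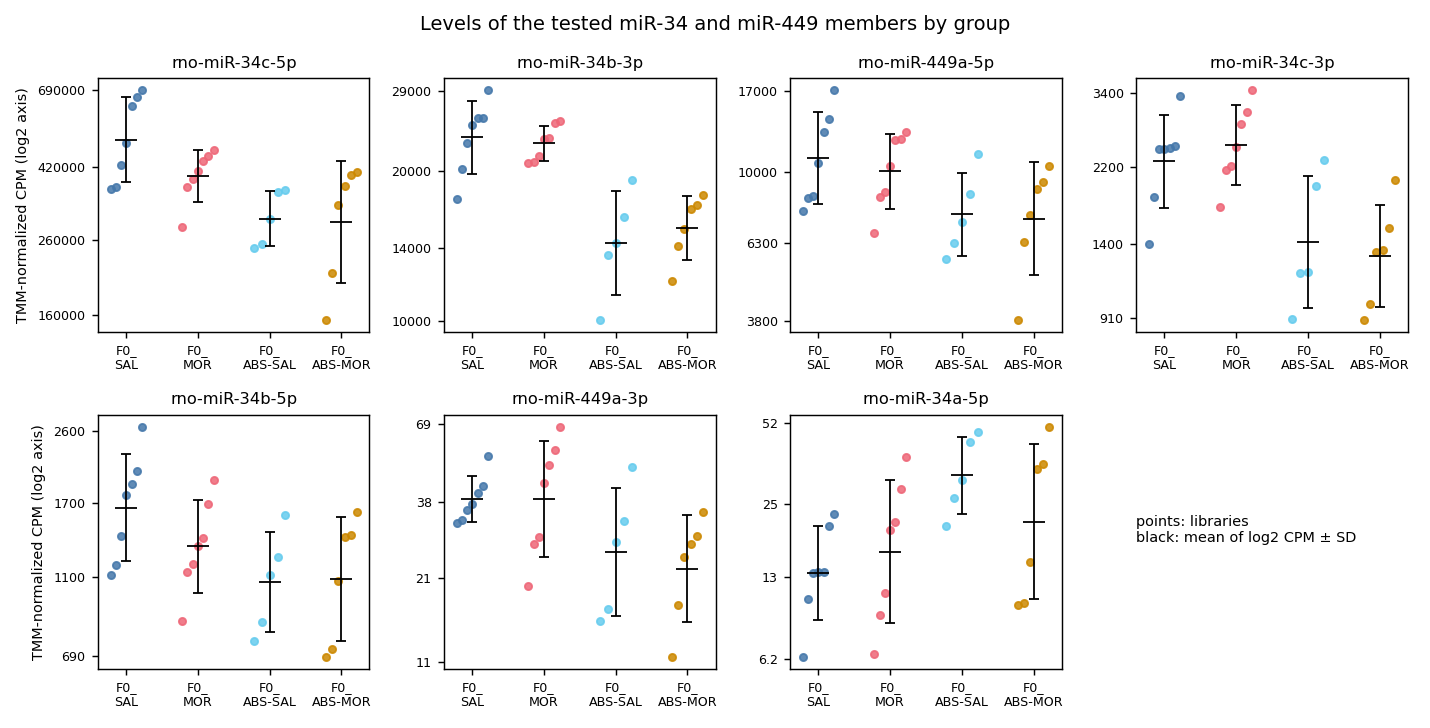
TMM-normalized CPM (log2 y axis, a separate scale in each panel) of the 7 tested members in each library (points) by group, with black bars for the mean of log2 CPM ± SD. In F0_ABS-SAL all 5 libraries of rno-miR-34c-5p lie below all 7 of F0_SAL, and 4 of 5 libraries of rno-miR-34a-5p lie above all 7. For rno-miR-34a-5p, F0_ABS-MOR (10.1 to 50.2 CPM) overlaps F0_MOR (6.52 to 38.2 CPM).

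The first comparison asked whether the family differed with the sire's drug when sperm was taken at the end of self-administration, and none of the 7 members passed the call. rno-miR-34c-5p ranged from 284500 to 468800 CPM in F0_MOR (median 408600) and from 362700 to 690500 CPM in F0_SAL (median 489500). All 7 F0_MOR libraries lay below the F0_SAL median, and 4 of the 7 F0_SAL libraries lay above every F0_MOR library, but the groups overlapped. The log2 fold change was -0.37 (SE 0.19), with an unadjusted p of 0.0589 and an adjusted p of 0.623 by edgeR's quasi-likelihood test over 317 miRNAs. To be called, a miRNA needed an adjusted p under 0.1 together with a log2 fold change larger than 0.58 in size. By that rule edgeR called 0 of 317 miRNAs (0%), 23 of them having an unadjusted p under 0.05 and none of those 23 being a family member. DESeq2 also called 0 miRNAs, and limma-voom called 1, which was not of the family. The paper, using DESeq2 with these thresholds, reported 1 mature miRNA for this comparison, also not of the family. Why the DESeq2 results differ was not tested.

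The other members did not move as a block. rno-miR-34b-5p had a log2 fold change of -0.35 (SE 0.23), close to that of rno-miR-34c-5p, and rno-miR-449a-5p one of -0.14 (SE 0.21). rno-miR-34b-3p stood at -0.05 (SE 0.14), where the small error limits any difference more tightly than for the rest. rno-miR-34c-3p at 0.13 (SE 0.22), rno-miR-449a-3p at 0.10 (SE 0.28) and rno-miR-34a-5p at 0.42 (SE 0.39) had the opposite sign. Of these, rno-miR-34b-3p, rno-miR-449a-5p, rno-miR-34c-3p and rno-miR-449a-3p change sign under at least 1 other scaling or covariate. The members' median was -0.05, beside 0.06 over all 317 miRNAs.

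The second comparison asked the same question after abstinence, and here too no member was called. rno-miR-34c-5p measured 248000, 253700, 299500, 356000 and 359900 CPM in the 5 F0_ABS-SAL libraries. In F0_ABS-MOR it spread more widely, from 154800 to 404200 CPM (median 349000). The F0_ABS-MOR libraries thus lay on both sides of F0_ABS-SAL, with 2 below all 5 and 3 above all 5, and the log2 fold change was 0.03 (SE 0.21).

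The remaining members gave log2 fold changes between -0.38 (SE 0.41) for rno-miR-34a-5p and 0.08 (SE 0.16) for rno-miR-34b-3p, all with an adjusted p of 1.00 by edgeR. Across all miRNAs edgeR again called 0 of 317 (0%), with 4 at an unadjusted p under 0.05 and no member among them. DESeq2 called no member either. The members' median log2 fold change was -0.01 and that of all miRNAs -0.01.

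**Figure D3:**
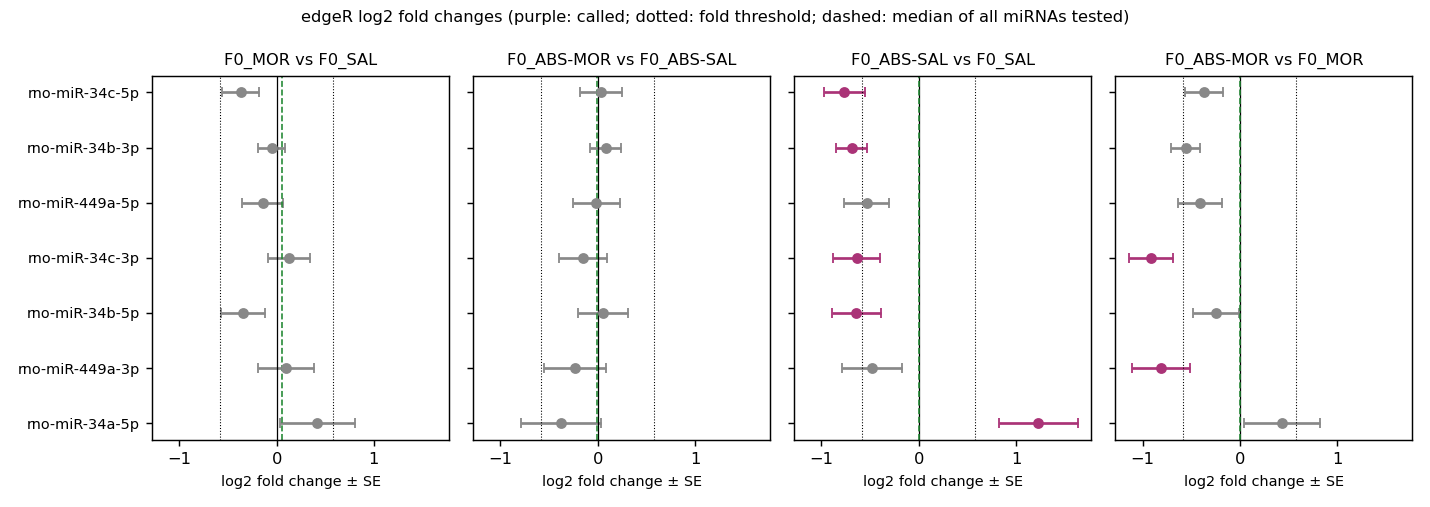
Log2 fold change (x axis) with its SE for the 7 tested members in 4 comparisons, with called members in purple, dotted lines at the fold threshold and a dashed line at the median of all miRNAs tested. Both morphine panels hold no called member, and 6 of 7 members lie left of 0 in both comparisons of collection time.

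Between collection times the saline males differed more. In F0_ABS-SAL, 5 of 7 members were called against F0_SAL, 4 lower and 1 higher, beside 33.1% of all 317 miRNAs called (22.4% higher and 10.7% lower). The members' median log2 fold change was -0.64, beside 0.00 over all miRNAs. An unadjusted p under 0.05 by edgeR was found for 6 of 7 members and for 136 of all 317 miRNAs. F0_SAL also serves as the control of the first comparison, and F0_ABS-SAL of the second, so the comparisons are not independent.

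rno-miR-34c-5p fell from a range of 362700 to 690500 CPM in F0_SAL to 248000 to 359900 CPM in F0_ABS-SAL, so that the groups did not overlap. The log2 fold change was -0.77 (SE 0.21, adjusted p = 0.00943, edgeR). Of all 317 miRNAs, 7 (2.21%) had every F0_ABS-SAL library below every F0_SAL library. As a share of miRNA counts the groups did overlap, with 26.1% to 41.1% in F0_ABS-SAL and 35.0% to 53.6% in F0_SAL. With total counts in place of TMM the log2 fold change was -0.36 (adjusted p = 0.107) and the call was lost, while the median of all miRNAs moved to 0.39.

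The 3p strand of the neighbouring hairpin moved the same way. rno-miR-34b-3p measured 10030, 13550, 14380, 16230 and 19270 CPM in F0_ABS-SAL, and from 17640 to 29190 CPM (median 24850) in F0_SAL. The ranges met through the highest F0_ABS-SAL library and the lowest F0_SAL library, and the log2 fold change was -0.69 (SE 0.16, adjusted p = 0.00271, edgeR). With total counts it was -0.30 (adjusted p = 0.196) and the call was lost.

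The minor strands of both hairpins were lower as well. rno-miR-34c-3p measured 903.3, 1185, 1191, 1969 and 2292 CPM in F0_ABS-SAL against 1403 to 3336 CPM (median 2448) in F0_SAL, a log2 fold change of -0.64 (SE 0.24, adjusted p = 0.0479, edgeR). rno-miR-34b-5p measured 753.3, 845.7, 1111, 1237 and 1581 CPM against 1112 to 2666 CPM (median 1781), a log2 fold change of -0.64 (SE 0.25, adjusted p = 0.0549, edgeR). In both, every F0_ABS-SAL library lay below the F0_SAL median but the ranges overlapped. Both calls were lost with total counts, at -0.23 (adjusted p = 0.514) for rno-miR-34c-3p and -0.24 (adjusted p = 0.468) for rno-miR-34b-5p, and with at least 10 counts required in every library, where both fell short of the size threshold. By limma-voom rno-miR-34b-5p had an adjusted p of 0.103. Both were also lost without library O of F0_SAL or library R of F0_ABS-SAL, leaving 3 members called, and rno-miR-34c-3p without library Y of F0_ABS-SAL.

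The miR-449a strands had the same sign without being called. rno-miR-449a-5p had a log2 fold change of -0.54 (SE 0.24, adjusted p = 0.0806, edgeR), past the threshold on p but short of that on size. It was called in 5 of 12 fits that left out 1 library (C, F, H or P of F0_SAL or K of F0_ABS-SAL) and with DESeq2 size factors, with TMM computed without the family and with log2 total count in the fit. rno-miR-449a-3p had a log2 fold change of -0.48 (SE 0.31, adjusted p = 0.233, edgeR). Without library E of F0_ABS-SAL, the highest of its group, it was called at -0.85 (adjusted p = 0.0520, edgeR).

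rno-miR-34a-5p, the widely expressed member, was the exception in direction. It measured 20.6, 26.5, 31.1, 43.6 and 48.0 CPM in F0_ABS-SAL, and from 6.34 to 22.8 CPM (median 13.6) in F0_SAL. Of the 5 F0_ABS-SAL libraries, 4 lay above every F0_SAL library. The log2 fold change was 1.23 (SE 0.41, adjusted p = 0.0265, edgeR), and the call was kept with total counts (1.61, adjusted p = 0.00326). The counts behind it were small, 10 to 40 per library in F0_SAL and 39 to 146 in F0_ABS-SAL. Of 6 other miRNAs tested that are reported to rise with p53, 2 were called higher and 0 lower, and their median log2 fold change was -0.10. The 2 higher ones, rno-miR-143-3p and rno-miR-145-5p, are both on the muscle list too, so these calls are not separate from those of that list. The most abundant of the 6, rno-miR-143-3p, is also the most abundant row of the muscle list. It was higher by a log2 fold change of 1.10 (SE 0.27, adjusted p = 0.00366, edgeR). The next of the 6, rno-miR-16-5p, stood at -0.14 (SE 0.23, adjusted p = 0.654, edgeR). Whether p53 has a part in the rno-miR-34a-5p difference was not tested.

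Markers of other cell types moved in this comparison. Of 8 epithelial miRNAs tested, 6 were higher and 0 lower (median log2 fold change 0.72), with rno-miR-200b-3p at 0.66 (SE 0.21) and rno-miR-200a-3p at 0.78 (SE 0.23) the most abundant and both called. Their summed level ran from 6544 to 10780 CPM in F0_SAL and from 8777 to 19440 CPM in F0_ABS-SAL. At most 1 of the 10 epithelial rows in the matrix, rno-miR-200c-5p, was at 0 throughout a group (F0_SAL). Of 6 muscle miRNAs, 4 were higher and 0 lower (median 1.32), among them rno-miR-143-3p and rno-miR-145-5p (1.77, SE 0.40). The muscle sums ran from 13750 to 16910 CPM in F0_SAL and from 17680 to 81880 CPM in F0_ABS-SAL, and rno-miR-143-3p made up most of them. Of the 9 muscle rows, rno-miR-133a-5p was at 0 throughout F0_SAL and rno-miR-133b-3p throughout F0_ABS-SAL. Of 21 testis germ cell miRNAs, 0 were higher and 2 lower (median -0.31). The most abundant, rno-miR-741-3p, stood at -0.57 (SE 0.20), short of the size threshold, and rno-miR-743b-3p was lower at -0.61 (SE 0.22). The list's sums ran from 32170 to 49120 CPM in F0_SAL and from 24140 to 38240 CPM in F0_ABS-SAL. Leukocyte markers gave 1 higher and 0 lower of 7, with rno-miR-146a-5p called at 0.73 (SE 0.22) and rno-miR-142-5p at -0.16 (SE 0.23). Erythroid markers gave 0 of 3 in either direction, with rno-miR-451-5p at -0.39 (SE 0.32) and rno-miR-144-3p at -0.21 (SE 0.28).

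With the log2 epithelial sum added to the fit, a setting chosen after seeing the data, 0 of 7 members were called, and rno-miR-34c-5p had a log2 fold change of -0.48 (adjusted p = 0.224, edgeR), rno-miR-34b-3p one of -0.46 (adjusted p = 0.0756) and rno-miR-34a-5p one of 0.89 (adjusted p = 0.250). All 7 kept their sign. The calls over all miRNAs also fell in this fit, to 19 higher and 6 lower. What part these cells have in the members' differences was not tested.

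The same comparison in morphine males, F0_ABS-MOR against F0_MOR, called 2 of 7 members, both lower, beside 21.1% of all 317 miRNAs (11% higher and 10.1% lower). The members' median log2 fold change was -0.41, beside 0.00 over all miRNAs. An unadjusted p under 0.05 by edgeR was found for 3 of 7 members and for 103 of all 317 miRNAs. In all, 6 of 7 members were below 0, as in the saline males. Of all 317 miRNAs, 49.5% were below 0 here and 49.8% in the saline males.

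rno-miR-34c-3p, a minor strand, changed most clearly. It ranged from 896.6 to 2033 CPM (median 1347) in F0_ABS-MOR and from 1740 to 3454 CPM (median 2475) in F0_MOR, with 5 of 6 F0_ABS-MOR libraries below all 7 of F0_MOR. The log2 fold change was -0.91 (SE 0.23, adjusted p = 0.00800, edgeR), and it was called with total counts (-0.74, adjusted p = 0.0356) and with the epithelial sum in the fit (-0.62, adjusted p = 0.0708) as well.

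rno-miR-449a-3p was called lower on few counts. It ranged from 11.4 to 35.0 CPM (median 26.1) in F0_ABS-MOR and from 19.8 to 67.8 CPM (median 43.9) in F0_MOR, with every F0_ABS-MOR library below the F0_MOR median and overlapping ranges. The log2 fold change was -0.81 (SE 0.30, adjusted p = 0.0618, edgeR). The call was lost with total counts (-0.62, adjusted p = 0.170) and when library A or U of F0_MOR, or I or J of F0_ABS-MOR, was left out, with adjusted p values of 0.157, 0.120, 0.132 and 0.105 by edgeR in that order, and without A or U 1 member was called in all.

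rno-miR-34b-3p separated the groups in CPM without being called by the main fit. It ranged from 12010 to 17900 CPM (median 16060) in F0_ABS-MOR and from 20760 to 25230 CPM (median 23200) in F0_MOR, so that all 6 libraries lay below all 7. This held for 5 of 317 miRNAs (1.58%). The log2 fold change was -0.55 (SE 0.15, adjusted p = 0.0141, edgeR), just short of the size threshold of 0.58. As a share of miRNA counts the groups overlapped, with 1.41% to 1.93% in F0_ABS-MOR and 1.92% to 2.71% in F0_MOR. By edgeR it was -0.37 with total counts (adjusted p = 0.104) and -0.45 with TMM from both matrices joined (adjusted p = 0.137). It was called in 4 of 13 fits that left out 1 library, by limma-voom, and with log2 total count in the fit.

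rno-miR-34c-5p, by contrast, overlapped. It ranged from 154800 to 404200 CPM in F0_ABS-MOR and from 284500 to 468800 CPM in F0_MOR, and the log2 fold change was -0.36 (SE 0.20, adjusted p = 0.188, edgeR). Every F0_ABS-MOR library lay below the F0_MOR median of 408600, and libraries Q and X were the lowest of the study. With log2 total count in the fit, rno-miR-34c-5p was called at -0.70 (adjusted p = 0.00582) and 6 of 7 members were called lower. Depth itself differed between these groups, with medians of 2134169 and 1428308 miRNA counts. The rest of the family gave -0.41 (SE 0.22) for rno-miR-449a-5p, -0.25 (SE 0.24) for rno-miR-34b-5p and 0.43 (SE 0.39) for rno-miR-34a-5p, with adjusted p values of 0.190, 0.505 and 0.474 by edgeR.

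The marker lists moved here too. Of 8 epithelial miRNAs, 4 were higher and 0 lower (median log2 fold change 0.64), with sums of 7483 to 11310 CPM in F0_MOR and 8838 to 17600 CPM in F0_ABS-MOR. Of 6 muscle miRNAs 2 were higher and 0 lower (median 0.60), and all 3 erythroid miRNAs were lower (median -0.95). The 21 testis germ cell miRNAs gave 0 calls (median -0.14), leukocyte markers 1 higher and 1 lower of 7, and the p53 list 1 higher and 0 lower of 6. That 1 higher p53 miRNA was rno-miR-143-3p, which is also on the muscle list. With the epithelial sum in the fit, 1 of 7 members was called. What part these cells have in the members' differences was not tested.

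Whether the difference with morphine itself differed between the collection times was tested by an interaction term, and 0 of 317 miRNAs (0%) passed, with 10 at an unadjusted p under 0.05 and no member among them. rno-miR-34c-5p gave -0.40 (SE 0.28) on the log2 scale, rno-miR-34b-5p -0.40 (SE 0.34) and rno-miR-34a-5p 0.80 (SE 0.57), each with an adjusted p of 0.953 by edgeR. So the larger count of called members in saline than in morphine males was not shown to be a difference between them.

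Ratios within a library do not depend on its scaling. The steadiest was between the near-identical rows rno-miR-34b-5p and rno-miR-34c-5p, where part of the reads may be assigned to the wrong row, and what share of the ratio that makes was not tested. rno-miR-34b-5p stood at 3.49 ± 0.464 (SD, n = 25) counts per 1000 of rno-miR-34c-5p, from 2.86 to 4.43 over all libraries. Its mean was 3.33 in F0_SAL and 3.37 in F0_MOR, and after abstinence 3.59 in F0_ABS-SAL and 3.73 in F0_ABS-MOR. The log2 ratio varied within groups with an SD of 0.19, less than that of either member's level.

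The other ratios were looser. rno-miR-34b-3p had on average 10.4 times the counts of rno-miR-34c-3p, from 7.24 to 17.1 times, with a within-group SD of the log2 ratio of 0.28. rno-miR-449a-5p stood at 24.7 ± 4.27 counts per 1000 of rno-miR-34c-5p, from 17.2 to 31.3, with an SD of 0.26, although it comes from another chromosome. The SD for rno-miR-34a-5p against rno-miR-34c-5p was 0.80.

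**Figure D4:**
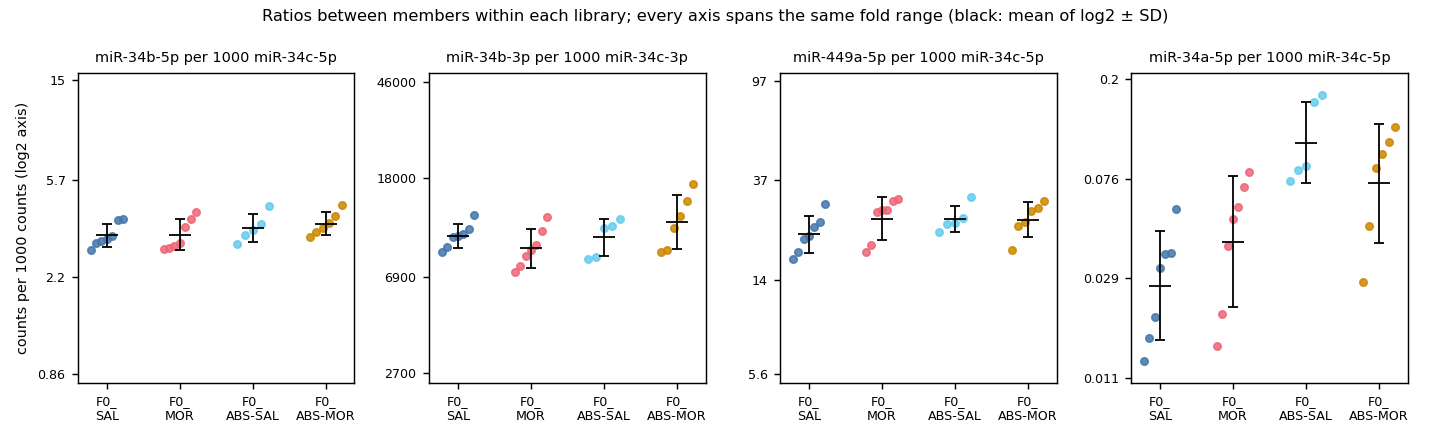
Counts of one member per 1000 counts of another in the same library (log2 y axis, the same fold range in each panel) by group, with black bars for the mean of log2 ± SD. rno-miR-34b-5p keeps nearly the same proportion to the near-identical rno-miR-34c-5p in every group, from 2.86 to 4.43 per 1000, a ratio that reads assigned to the wrong row could affect, whereas rno-miR-34a-5p spreads from 0.0130 to 0.172 per 1000.

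For rno-miR-34b-5p, rno-miR-449a-5p and rno-miR-34a-5p, likeness to rno-miR-34c-5p over libraries showed the same order as their ratios to it. After each group's mean was removed, the Spearman correlation with rno-miR-34c-5p over 25 libraries was 0.915 for rno-miR-34b-5p and 0.779 for rno-miR-449a-5p, which both share its seed. It was 0.489 for rno-miR-34c-3p, from the same hairpin, 0.444 for rno-miR-34b-3p, 0.283 for rno-miR-34a-5p and -0.202 for rno-miR-449a-3p. The 3p strands of the neighbouring hairpins, rno-miR-34b-3p and rno-miR-34c-3p, had 0.848 with each other. The miR-34b and miR-34c strands thus resembled the same arm of the neighbouring hairpin more than the other arm of their own, since rno-miR-34b-3p had 0.558 with rno-miR-34b-5p. These values share libraries, scaling and base composition, and the rno-miR-34b-5p value also shares whatever reads were assigned between the near-identical rows, so they are given as descriptions.

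Outside the family, the 5 most like rno-miR-34c-5p among 310 miRNAs were rno-miR-101b-3p (0.935), rno-miR-18a-5p (0.862), rno-miR-16-5p (0.775), rno-miR-883-3p (0.761) and rno-miR-340-5p (0.758), against a median of -0.04. rno-miR-101b-3p was thus closer to rno-miR-34c-5p within groups than any family member. Between collection times it did not follow, with log2 fold changes of -0.24 (adjusted p = 0.333, edgeR) in saline and 0.04 (adjusted p = 0.872) in morphine males. The 2 least like it were rno-let-7d-5p (-0.825) and rno-miR-320-3p (-0.820).

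The use of the 2 arms was examined in the 3 hairpins with both arms tested, among 78 such hairpins. miR-34c gave a median of 207 5p counts for each 3p count (82.4 to 338 over libraries) and miR-449a a median of 266 (127 to 824), ranking 7 and 5 from the most 5p-sided. miR-34b was the reverse, with a median of 14.6 3p counts for each 5p count (10.9 to 29.5), and ranked 64. By these counts the neighbouring miR-34b and miR-34c hairpins favoured opposite arms in every library. The miR-34b ratio rests on the rno-miR-34b-5p counts, which are uncertain because of their likeness to the far more abundant rno-miR-34c-5p.

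Within groups the log2 ratio had an SD of 0.41 for miR-34c and 0.38 for miR-34b, below the median of 0.63 over the 78 hairpins, and of 0.69 for miR-449a, above it. The largest shift within the family was in miR-34c, whose ratio was 165 ± 48.6 (SD, n = 7) in F0_MOR. The F0_SAL ratio was 228 ± 65.3 (SD, n = 7), that of F0_ABS-SAL 220 ± 68.2 (SD, n = 5) and that of F0_ABS-MOR 227 ± 38.4 (SD, n = 6). F0_ABS-MOR exceeded F0_MOR by 0.50 on the log2 scale, with a two-sided exact permutation p of 0.0291 and an adjusted p of 0.246 over 78 hairpins. F0_MOR lay below F0_SAL by a log2 difference of -0.48, with an exact permutation p of 0.0682 and an adjusted p of 0.846. Both miss the threshold of 0.1 after adjustment. By size these differences ranked 25 and 12 among the 78 hairpins, in that order. Without library A of F0_MOR, whose ratio was 82.4, they were smaller, at 0.34 and -0.32.

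No arm ratio of the family passed in any of 4 comparisons. Over all hairpins, 0% passed between F0_MOR and F0_SAL and 0% between F0_ABS-MOR and F0_ABS-SAL, 1.28% between F0_ABS-SAL and F0_SAL and 2.56% between F0_ABS-MOR and F0_MOR. The smallest p the exact test allows was 0.000583, 0.00216, 0.00126 and 0.000583 in that order.

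**Figure D5:**
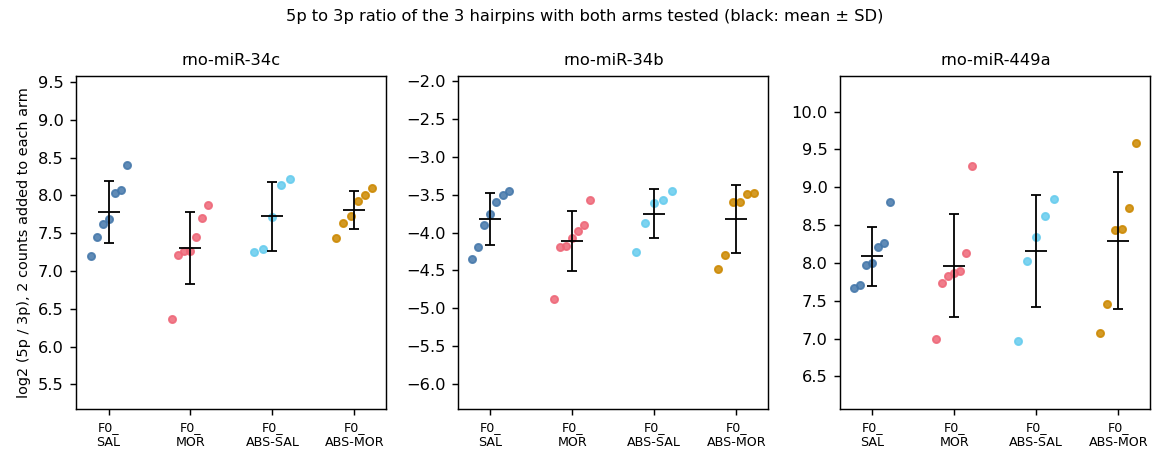
Log2 ratio of 5p to 3p counts, with 2 counts added to each arm, for miR-34c, miR-34b and miR-449a in each library (points) by group, with black bars for the mean ± SD and the same span on every axis. miR-34b lies below 0 in all libraries and both others far above 0, and no group of any hairpin stands clear of the others.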

How the data were processed

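Small RNA libraries were made by the authors with the NEBNext small RNA kit, and forward reads were trimmed, aligned to the rat genome (Rnor_6.0) with up to 1 mismatch and annotated to miRBase, then to Ensembl ncRNAs, with sRNAbench. The values the authors deposited are raw read counts in separate miRNA and ncRNA matrices, not normalized. The ncRNA counts served a scaling alternative alone. Groups were taken from the sample labels, and columns were matched by group size. Column order was not used to tie a letter to a sample, so libraries have a group but no replicate number. The labels call the libraries biological replicates.

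miRNA counts were fitted with edgeR 4.0.16 in R 4.3.3 (TMM, filterByExpr, quasi-likelihood test, 1 model with 4 groups), with Benjamini-Hochberg adjustment over 317 miRNAs. SE is the size of the log2 fold change divided by the square root of F, an approximation. Arm ratios were compared by two-sided exact permutation tests on log2 ratios after 2 counts were added to each arm. The fitting script was tested on simulated data. Alternatives used DESeq2 1.42.0 and limma 3.58.1, other scalings, filters, covariates and thresholds, and each library left out.

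All members are named, with the 5 most and 2 least alike miRNAs and the 2 most abundant of each list. Members, lists and tests were chosen with earlier results of these data known.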

Additional observations from a re-analysis of the deposited data

How the results depend on the processing

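No paired analysis was possible because the columns carry letters, which no label ties to a replicate number. Of 1320 recomputed values, 1214 counted as unchanged. For a fold change that meant the same direction and the same call. For a number of members called it meant a value within a factor of 1.5 of the main fit, or 0 in both. Many of the unchanged fold changes were of members that the main fit did not call. In F0_ABS-SAL vs F0_SAL, 5 members were called, against 1 with total counts alone, 2 with at least 10 counts in every library and 0 with the epithelial covariate, and 3 to 6 with a library left out. The filter of at least 10 counts removed rno-miR-34a-5p, which had 9 counts in its lowest library, so it was not tested there. In F0_ABS-MOR vs F0_MOR, 2 were called, against 1 with total counts alone, 1 at an adjusted p under 0.05, 1 with the epithelial covariate and 6 with log2 total count as covariate, and 1 to 3 with a library left out. No member was called under any alternative in the morphine comparisons or the interaction. Total counts alone moved the median of all miRNAs to 0.39 in saline and 0.18 in morphine males between collection times and to 0.25 in F0_MOR vs F0_SAL, and the calls to 110 higher and 1 lower (71 and 34 with TMM) and to 57 and 14 (35 and 32). With TMM from both matrices joined, that median was 0.11 in morphine males between collection times.

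The reversals were small. In F0_MOR vs F0_SAL, rno-miR-34b-3p was 0.14 with total counts, 0.028 with log2 total count and 0.044 with the epithelial covariate, and rno-miR-449a-5p 0.074 and 0.12 with the first and second of these. With both matrices joined, rno-miR-34c-3p was -0.052 and rno-miR-449a-3p -0.001373. In F0_ABS-MOR vs F0_ABS-SAL, limma-voom gave -0.042 for rno-miR-34c-5p and -0.034 for rno-miR-34b-5p, and rno-miR-449a-5p was 0.018 with TMM without the family, 0.084 with log2 total count and 0.027 with the epithelial covariate. In the interaction, rno-miR-34b-3p was 0.069 and rno-miR-449a-5p 0.11 with total counts, and rno-miR-449a-5p 0.024 by limma-voom and 0.035 with log2 total count. The cause was not tested.

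With a library left out, values crossed 0 in these ranges. In F0_MOR vs F0_SAL, rno-miR-34c-3p ran from -0.048 to 0.17 and rno-miR-449a-3p from -0.14 to 0.18. In F0_ABS-MOR vs F0_ABS-SAL, rno-miR-34c-5p ran from -0.076 to 0.19, rno-miR-34b-3p from -0.058 to 0.20, rno-miR-449a-5p from -0.15 to 0.15, rno-miR-34c-3p from -0.33 to 0.049, rno-miR-34b-5p from -0.092 to 0.22 and rno-miR-449a-3p from -0.40 to 0.080. The interaction of rno-miR-449a-3p ran from -0.027 to 0.45. For arm ratios, miR-449a ran from -0.35 to 0.032 in F0_MOR vs F0_SAL. In F0_ABS-MOR vs F0_ABS-SAL, miR-34c ran from -0.034 to 0.21, miR-34b from -0.20 to 0.057 and miR-449a from -0.17 to 0.37. In F0_ABS-SAL vs F0_SAL, miR-34c ran from -0.18 to 0.059, miR-34b from -0.017 to 0.20 and miR-449a from -0.10 to 0.37. Depth limits rno-miR-34a-5p and rno-miR-449a-3p most.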
